A study of Mus musculus with 6 samples.

Results

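NF-κB is a family of dimeric transcription factors built from the products of *Nfkb1*, *Nfkb2*, *Rel*, *Rela* and *Relb*. In resting lymphocytes the dimers are held in the cytoplasm by IκB proteins, and stimulation of the T cell receptor and CD28 leads to the degradation of those inhibitors and to the entry of the dimers into the nucleus. Several of the genes that NF-κB switches on encode its own subunits and its own brakes, so their transcripts are a common readout of the feedback in activated CD4+ T cells. The genes described here are those 5 subunits and 5 inhibitors and cofactors, the IκB genes *Nfkbia*, *Nfkbib* and *Nfkbie*, the ubiquitin-editing enzyme gene *Tnfaip3* and the atypical IκB gene *Bcl3*. They were chosen by symbol, and all 10 were present among the 35602 genes of the count table and among the 34714 genes of the tables of normalized values. None of the 10 was lost to the filter on low counts, and their lowest count in any library was 1016.

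CD4+ T cells sorted from mouse spleen were stimulated with antibodies to CD3 and CD28 and treated with MAPK13-IN-1, a small molecule aimed at the kinase encoded by *Mapk13*, or with its solvent DMSO, and mRNA was sequenced from 3 libraries per group. The libraries serve to find transcripts whose level the compound alters by 72 h of stimulation. For the replicate 1 pair a kit for stranded mRNA was used, and the labels give it neither a dose nor a replicate number, so that the number 1 is only a name given here. Replicates 2 and 3 were made from wild-type cells with poly-T beads, and here 17.1 µM of inhibitor or 0.1 µl of DMSO was added after day 1 of stimulation per the labels, whereas the series' design text places the inhibitor in the culture throughout. No source used here ties a mouse strain, an age or a number of animals to these libraries, so p-values measure the spread between these libraries, which may be technical. Replicates 2 and 3 were deposited as raw counts, which added up to 26874805 and 28487403 for DMSO and to 33854760 and 32617702 for MAPK13-IN-1. The replicate 1 pair was deposited as normalized values, taken here to be FPKM (fragments per length of transcript and size of library) because of their size and their dependence on transcript length. Its depth is unknown, it has 1 library per group, and it entered no test. Levels below are CPM (counts relative to the TMM-scaled library total) for replicates 2 and 3 and FPKM for replicate 1, which were normalized separately. Log2 fold changes are MAPK13-IN-1 over DMSO, tested on 2 libraries against 2 with edgeR's quasi-likelihood test and Benjamini-Hochberg adjustment over all 16269 genes that passed the filter, and a gene is called at an adjusted p under 0.05.

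The markers of cell identity found in the count libraries were not those of CD4+ T cells alone. Of the 8 genes on the CD4 T cell list 7 were lower with MAPK13-IN-1. Of all genes tested, 32.3% were called lower and 31.5% higher, and the counts of each marker list stand beside these shares. The CD4 T cell list summed to 1696 and 1718 CPM (scaled here by library totals) with DMSO against 992 and 1110 CPM with MAPK13-IN-1. The gene with the highest mean CPM over the 4 libraries, the measure used to pick a leading gene in each list here, was *Cd5*. It stood at 408 and 419 CPM against 161 and 208 CPM, so that it led with DMSO but not with MAPK13-IN-1, and the exception, *Cd4*, singled out after its values were seen, had a log2 fold change of −0.00064. Transcripts of B cells were abundant in the same libraries: the 10 genes of that list summed to 1095 and 1065 CPM with DMSO and 1389 and 1398 CPM with MAPK13-IN-1, 7 of them were higher and 2 lower, and the leading gene, *Pax5*, rose from 171 and 161 CPM to 276 and 281 CPM. Per length, the summed B cell list equalled 61.2% and 59.6% of the CD4 T cell list in the DMSO libraries and 143% and 126% in the MAPK13-IN-1 libraries. In the replicate 1 pair it equalled 4.20% with DMSO and 3.34% with MAPK13-IN-1, so that pair carried few B cell transcripts. In bulk RNA, fewer cells of a type and less RNA per cell cannot be told apart, and the part of the B cell and T cell transcripts in every difference below was not tested.

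Other cell types left smaller traces, and their counts stand beside the same shares of all genes tested, 32.3% lower and 31.5% higher. The erythroid list, with 6 of 7 genes tested and all 6 higher, summed to 5.95 and 5.23 CPM with DMSO and 92.1 and 64.8 CPM with MAPK13-IN-1, led by *Hbb-bs* at 1.90 and 1.65 CPM against 31.0 and 22.8 CPM, with *Slc4a1* at 0 in at least 1 library. The macrophage and monocyte list, led by *Cd68*, had 4 of 6 genes higher and summed to 13.8 and 12.7 CPM against 43.5 and 36.6 CPM. The dendritic cell list, led by *Zbtb46*, had 4 of 5 genes tested and all 4 higher, at 18.4 and 18.6 CPM against 61.7 and 51.1 CPM, with *Clec9a* and *Xcr1* at 0 in at least 1 library. The CD8 T and NK cell list, led by *Cd8b1*, had 2 of 4 genes tested, both lower, at 11.2 and 10.5 CPM against 6.20 and 8.22 CPM, with *Ncr1* and *Klrb1c* at 0 in at least 1 library. The neutrophil list, led by *Mpo*, had 1 of 5 genes tested, which was higher, and summed to 0.223 and 0.211 CPM against 0.561 and 0.797 CPM, with *S100a9* at 0 in all 4 libraries and *S100a8*, *Ly6g* and *Elane* at 0 in at least 1. Within the replicate 1 pair, from DMSO to MAPK13-IN-1, the erythroid list summed to 0.590 and 1.66 FPKM. The macrophage and monocyte list summed to 3.39 and 9.49 FPKM there, and the dendritic cell list to 3.36 and 14.6 FPKM. Opposite to the count libraries were the CD8 T and NK cell list, at 3.54 and 8.51 FPKM, and the neutrophil list, at 0.533 and 0.351 FPKM. The part of all these cell types in the differences below, in either set of libraries, was not tested either.

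Of the 10 NF-κB genes, 8 differed between the groups in the count libraries, which is 80% of them beside 63.8% of all genes tested. Of these, 5 were lower with MAPK13-IN-1, beside 32.3% of all genes, and 3 were higher, beside 31.5% of all genes. With so many genes moving, the number of called members says little by itself, and the account rests on which members moved and in which direction. The lower genes were *Nfkb1*, *Nfkb2*, *Rela*, *Relb* and *Bcl3*, the higher genes were *Rel*, *Nfkbie* and *Tnfaip3*, and *Nfkbia* and *Nfkbib* were not called. All lower genes but *Bcl3* were subunits, and all higher genes but *Rel* were inhibitors. A change of at least 1 on the log2 scale was reached by 2 members, *Nfkb2* and *Relb*, where 23.4% of all genes passed that call, and *Tnfaip3* fell just short of it at 0.999. The median log2 fold change over the 10 genes was −0.27, beside 0.01 over all genes tested, and the median absolute log2 fold change was 0.70 beside 0.52.

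**Figure D1:**
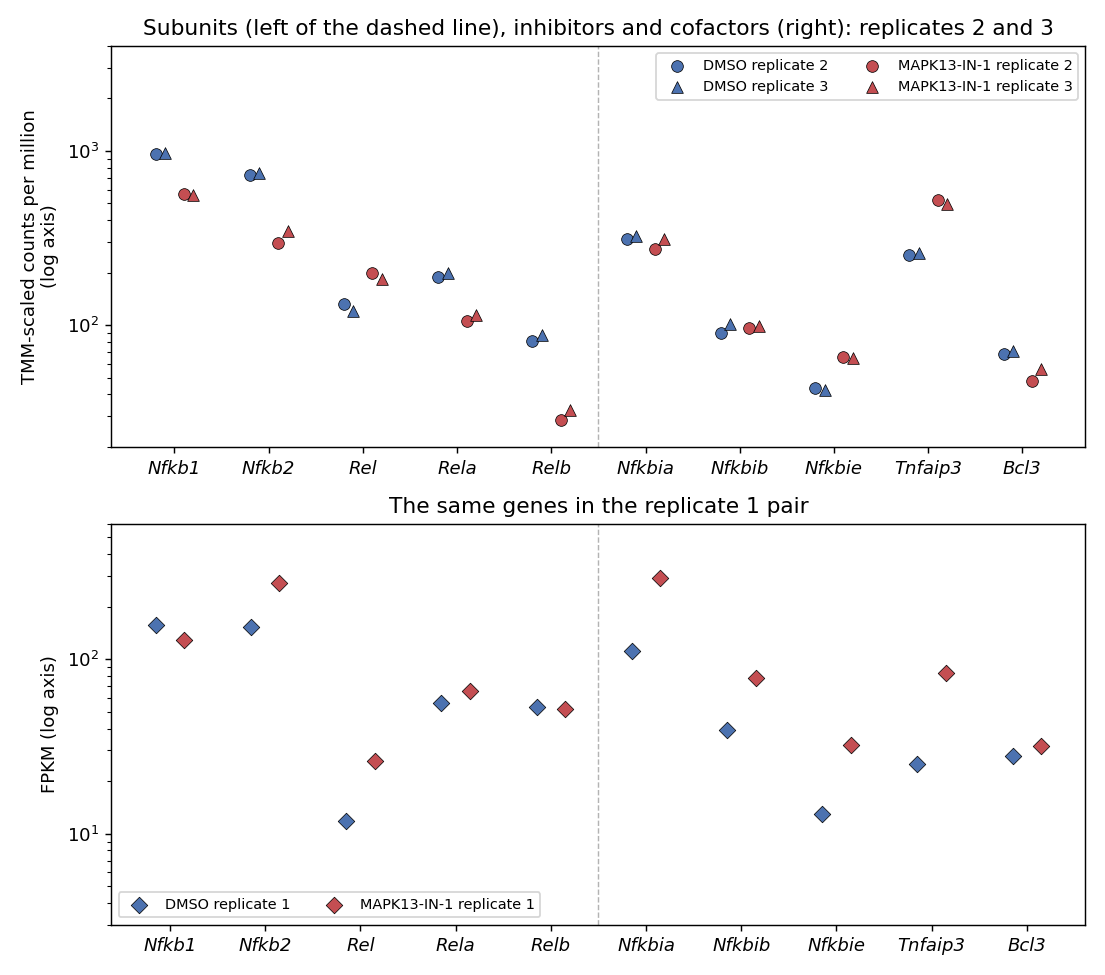
Level of each gene in every library on log axes, as TMM-scaled CPM in replicates 2 and 3 (upper panel) and as FPKM in the replicate 1 pair (lower panel), with DMSO in blue and MAPK13-IN-1 in red. In the upper panel the groups overlap for *Nfkbia* and *Nfkbib*, the genes not called. The share of all genes without overlap was not counted, but 63.8% of all genes tested were called. In the lower panel 8 of the 10 genes are higher with MAPK13-IN-1, beside 54.3% of all genes at or above 1 FPKM in both libraries.

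The kinase gene itself was scarce. *Mapk13* was counted 79 and 74 times with DMSO and 21 and 51 times with MAPK13-IN-1, a log2 fold change of −1.47 (edgeR, adjusted p = 0.0049). Its size depends on single libraries, at −0.94 without MAPK13-IN-1 replicate 2 and −2.29 without MAPK13-IN-1 replicate 3. Replicate 1 gave 0.19 FPKM with DMSO and 3.28 FPKM with MAPK13-IN-1, the opposite direction.

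*Nfkb1* (chr3:135584655-135691547 in mm10, minus strand) encodes p105, the precursor of the p50 subunit, which also acts as an IκB through its own ankyrin repeats. Its level was 953 and 978 CPM in the DMSO libraries and 563 and 559 CPM in the MAPK13-IN-1 libraries, or 966 ± 17.7 CPM and 561 ± 2.57 CPM (SD, n = 2 each). Both inhibitor libraries lay below both DMSO libraries, by far more than replicates differed. The log2 fold change was −0.78 with a standard error of 0.047 (edgeR, adjusted p = 3.76e-07), and DMSO-treated cells held 1.72 times the level of inhibitor-treated cells. With 157 FPKM for DMSO and 129 FPKM for MAPK13-IN-1, the replicate 1 pair also had less *Nfkb1* with the inhibitor.

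*Nfkb2* (chr19:46304320-46312385, plus strand) encodes p100, which is processed to the p52 subunit of the non-canonical branch and otherwise restrains RelB. It stood at 730 and 748 CPM with DMSO and at 298 and 348 CPM with MAPK13-IN-1, or 739 ± 12.5 CPM and 323 ± 35.9 CPM (SD, n = 2 each). The groups were far apart, although the inhibitor replicates differed more from each other than the DMSO replicates did. This gave a log2 fold change of −1.19 with a standard error of 0.070 (edgeR, adjusted p = 3.29e-07), a level 2.29 times as high in DMSO-treated cells. Replicate 1 went the other way, from 153 FPKM with DMSO to 274 FPKM with MAPK13-IN-1. Of the 4221 exonic bases annotated for *Nfkb2*, 830 (19.7%) are shared with genes on the opposite strand, *Psd* among them, and since the use of strand in counting was not given in the sources used here, reads from those bases cannot be assigned with certainty.

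*Rela* (chr19:5637483-5648130, plus strand) encodes p65, which carries the transactivation domain of the classical dimer. Its level was 188 and 198 CPM in the DMSO libraries and 105 and 114 CPM in the MAPK13-IN-1 libraries, or 193 ± 7.42 CPM and 110 ± 6.50 CPM (SD, n = 2 each). Every inhibitor library was below every DMSO library. In the fit, the log2 fold change was −0.82 with a standard error of 0.064 (edgeR, adjusted p = 2.14e-06). Replicate 1 showed a slightly higher level with MAPK13-IN-1, at 65.9 FPKM against 55.9 FPKM with DMSO.

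*Relb* (chr7:19606217-19629438, minus strand) encodes the partner of p52 in the non-canonical dimer and is itself a transcriptional target of RelA. It was at 80.9 and 87.7 CPM with DMSO and at 28.6 and 32.7 CPM with MAPK13-IN-1, or 84.3 ± 4.84 CPM and 30.6 ± 2.86 CPM (SD, n = 2 each). This was the largest fall of the 10 genes in the count libraries. Its log2 fold change was −1.46 with a standard error of 0.085 (edgeR, adjusted p = 3.06e-07), 2.75 times as much transcript in DMSO-treated cells. In replicate 1 *Relb* was nearly level, at 53.3 FPKM with DMSO and 51.6 FPKM with MAPK13-IN-1.

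*Rel* (chr11:23736847-23770970, minus strand) encodes c-Rel, a subunit made mainly in lymphoid cells that acts on *Il2* in activated T cells. Unlike the other subunits it was higher with the inhibitor, at 198 and 183 CPM in the MAPK13-IN-1 libraries against 133 and 120 CPM in the DMSO libraries, or 191 ± 11 CPM against 126 ± 9.05 CPM (SD, n = 2 each). The groups did not overlap. Fitted, the log2 fold change was 0.59 with a standard error of 0.069 (edgeR, adjusted p = 3.23e-05), and the level was 1.51 times that of DMSO-treated cells. The replicate 1 pair moved the same way, from 11.8 FPKM with DMSO to 26.2 FPKM with MAPK13-IN-1.

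*Nfkbia* (chr12:55489410-55492647, minus strand) encodes IκBα, the inhibitor that is degraded first and remade fastest, and is the usual readout of ongoing NF-κB activity. Its level was 310 and 324 CPM in the DMSO libraries and 273 and 312 CPM in the MAPK13-IN-1 libraries, or 317 ± 9.73 CPM and 293 ± 27.6 CPM (SD, n = 2 each). The groups overlapped, because MAPK13-IN-1 replicate 3 lay between the DMSO replicates. The log2 fold change of −0.12 (95% confidence interval −0.27 to 0.03) was not called (edgeR, adjusted p = 0.158). This call rests on 1 library, since without MAPK13-IN-1 replicate 3 the log2 fold change was −0.22 and passed the threshold (edgeR, adjusted p = 3.26e-06), and over the 13 alternatives tried the adjusted p ranged from 3.26e-06 to 1. Scaled by library totals, the sign turned and the log2 fold change was 0.01. By contrast, *Nfkbia* stood at 112 FPKM with DMSO and 292 FPKM with MAPK13-IN-1 in the replicate 1 pair, a level 2.62 times as high.

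*Nfkbib* (chr7:28758251-28767512, minus strand) encodes IκBβ, which is degraded and restored more slowly than IκBα. It was at 89.5 and 102 CPM with DMSO and 95.7 and 98.7 CPM with MAPK13-IN-1. The inhibitor libraries lay between the DMSO libraries, and the log2 fold change was 0.02 (95% confidence interval −0.14 to 0.18; edgeR, adjusted p = 0.783). Its sign was positive under 11 of 13 alternatives and negative under the other 2, and it was called under none of them. Replicate 1 went from 39.5 FPKM with DMSO to 77.7 FPKM with MAPK13-IN-1, a level 1.97 times as high. Of its 2127 exonic bases 314 (14.8%) overlap *Ccer2* on the opposite strand.

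*Nfkbie* (chr17:45555703-45563169, plus strand) encodes IκBε, which binds dimers of RelA and c-Rel and is induced by NF-κB with a delay. It stood at 43.3 and 42.3 CPM in the DMSO libraries and at 65.9 and 64.7 CPM in the MAPK13-IN-1 libraries, or 42.8 ± 0.728 CPM and 65.3 ± 0.899 CPM (SD, n = 2 each). The replicates of each group nearly coincided and the groups were well apart. This corresponded to a log2 fold change of 0.61 with a standard error of 0.070 (edgeR, adjusted p = 2.94e-05). Replicate 1 moved the same way, from 12.9 FPKM with DMSO to 32.2 FPKM with MAPK13-IN-1. Of the IκB genes *Nfkbia*, *Nfkbib* and *Nfkbie*, it was the only one called in the count libraries, while all 3 were higher with MAPK13-IN-1 in the replicate 1 pair.

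*Tnfaip3* (chr10:19000910-19015657, minus strand) encodes a ubiquitin-editing enzyme that shuts off signalling upstream of the IκB kinase. It was at 251 and 260 CPM with DMSO and at 525 and 498 CPM with MAPK13-IN-1, or 256 ± 6.31 CPM and 511 ± 18.8 CPM (SD, n = 2 each). This was the largest rise of the 10 genes in the count libraries and in the replicate 1 pair. On the log2 scale the fold change was 1.00 with a standard error of 0.054 (edgeR, adjusted p = 1.95e-07), a level 2.00 times that of DMSO-treated cells. Replicate 1 had 25.1 FPKM with DMSO and 83.8 FPKM with MAPK13-IN-1, a level 3.34 times as high.

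*Bcl3* (chr7:19808462-19822770, minus strand) encodes an IκB-like protein that resides in the nucleus and can turn dimers of p50 or p52 into activators. Its level was 68.0 and 71.3 CPM in the DMSO libraries and 48.1 and 56.2 CPM in the MAPK13-IN-1 libraries, or 69.7 ± 2.32 CPM and 52.1 ± 5.72 CPM (SD, n = 2 each). The groups did not overlap, although the inhibitor replicates were spread more widely. The log2 fold change was −0.42 with a standard error of 0.084 (edgeR, adjusted p = 0.00137), the smallest of the 8 called changes. Replicate 1 had 32.0 FPKM with MAPK13-IN-1 and 27.7 FPKM with DMSO, a small difference the other way. A small part of its exons, 55 of 1850 bases (2.97%), overlaps a gene on the opposite strand.

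The calls of *Rel*, *Nfkbie* and *Bcl3* did not reach the threshold when the test asked for a fold change above 1.5 in place of any change. Scaling by library totals moved the median log2 fold change over all genes from 0.01 to 0.14, so that every member shifted upwards with it, and none of the 8 called members changed direction under any of the alternatives tried.

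**Figure D2:**
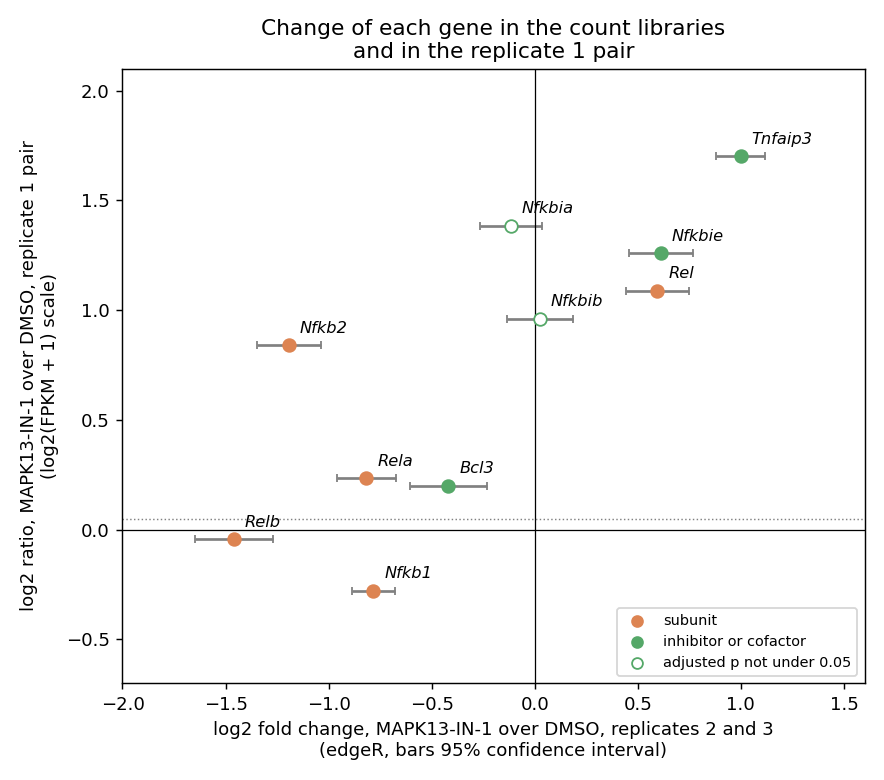
Log2 fold change of each gene in replicates 2 and 3 with its 95% confidence interval (horizontal) against its log2 ratio in the replicate 1 pair on the log2(FPKM + 1) scale (vertical), with subunits in orange, inhibitors and cofactors in green, open circles for genes not called, and a dotted line at the replicate 1 median over all genes of 0.05. *Tnfaip3*, *Nfkbie* and *Rel* lie up and to the right, *Nfkb1* and *Relb* down and to the left, and *Nfkb2*, *Rela* and *Bcl3* up and to the left.

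Set against the replicate 1 pair, the 3 genes called higher were also higher there, with log2 ratios of 1.70 for *Tnfaip3*, 1.26 for *Nfkbie* and 1.09 for *Rel* on the log2(FPKM + 1) scale. Of all genes called higher that had at least 1 FPKM in each library of that pair, 72.4% were higher in it as well. Of the 5 genes called lower, 2 were lower in the replicate 1 pair, with log2 ratios of −0.28 for *Nfkb1* and −0.05 for *Relb*, where 59.3% of all genes called lower were. The other 3 were higher in it, with log2 ratios of 0.84 for *Nfkb2*, 0.23 for *Rela* and 0.20 for *Bcl3*. The genes not called had log2 ratios of 1.38 for *Nfkbia* and 0.96 for *Nfkbib*. In all, 8 of the 10 genes were higher in the replicate 1 pair, where 54.3% of the 10448 genes at or above 1 FPKM in each of its libraries were, and their median log2 ratio was 0.90 beside 0.05 over those genes. The replicate 1 libraries differ from the others in kit, table and B cell transcripts together, their own groups differ in the summed lists of cell types given above, with B cells at 53.1 FPKM for DMSO and 37.6 FPKM for MAPK13-IN-1, and the part of each in the difference between the pairs was not tested.

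Levels of different genes can be ordered only per length, as CPM per kilobase of annotated exon or as FPKM. In both DMSO count libraries *Nfkb1* came highest, at 231 and 237 CPM per kilobase, followed by *Nfkbia* at 196 and 205 and *Nfkb2* at 173 and 177. *Rela* at 69.1 and 73.0, *Tnfaip3* at 54.7 and 56.6 and *Nfkbib* at 42.1 and 47.7 CPM per kilobase came next. The lowest places could not be told apart beyond the spread of replicates, with *Bcl3* at 36.8 and 38.5 beside *Relb* at 36.6 and 39.7, and *Nfkbie* at 17.8 and 17.4 beside *Rel* at 17.8 and 16.1 CPM per kilobase. With MAPK13-IN-1 the order changed at both ends and in the middle. *Nfkbia*, at 173 and 198 CPM per kilobase, now stood above *Nfkb1* at 137 and 136, *Tnfaip3* at 114 and 108 had passed *Nfkb2* at 70.5 and 82.5, *Nfkbib* at 45.0 and 46.4 stood above *Rela* at 38.65 and 42.04, and *Relb* had dropped to the lowest place at 12.9 and 14.8. *Nfkbie* at 27.1 and 26.6, *Rel* at 26.6 and 24.5 and *Bcl3* at 26.0 and 30.4 CPM per kilobase could not be ordered there.

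The make-up of the subunit transcripts, which does not depend on how libraries are scaled, shifted with these levels. *Rel* made up 3.37% and 2.96% of the summed level per length of the 5 subunits in the DMSO libraries and 9.32% and 8.18% in the MAPK13-IN-1 libraries, and 2.74% against 4.80% in the replicate 1 pair. Its share was thus higher with the inhibitor in both sets of libraries. *Relb* went from 6.93% and 7.31% to 4.54% and 4.93%, and from 12.4% to 9.44% in the replicate 1 pair, lower in both sets. The share of *Rela* stayed within a narrow range, at 13.1% and 13.4% with DMSO and 13.6% and 14.0% with MAPK13-IN-1, and 13.0% against 12.1% in the replicate 1 pair. *Nfkb1* and *Nfkb2* together made up most of the subunit transcripts in every library. *Nfkb2* went from 32.8% and 32.6% to 24.7% and 27.6% in replicates 2 and 3, where *Nfkb1* stayed ahead at 43.8% and 43.7% against 47.9% and 45.3%, and from 35.4% to 50.1% in the replicate 1 pair, where *Nfkb1* went from 36.5% to 23.6%. These shares were not tested.

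The ratio of *Nfkbia*, *Nfkbib* and *Nfkbie* to subunit transcripts moved the same way in both sets of libraries. It is not a balance of brakes to activators. *Nfkb1* and *Nfkb2*, most of the subunit sum, encode p105 and p100, which also restrain dimers as described above, and *Tnfaip3* and *Bcl3* are left out. The summed level per length of *Nfkbia*, *Nfkbib* and *Nfkbie*, divided by that of the 5 subunits, was 0.486 and 0.498 in the DMSO libraries and 0.859 and 0.904 in the MAPK13-IN-1 libraries. For replicate 1 it was 0.380 with DMSO and 0.735 with MAPK13-IN-1. The groups of replicates 2 and 3 did not overlap, and replicate 1 went the same way, but different sums moved. In replicates 2 and 3 the subunit sum went from 528 and 543 to 285 and 300 CPM per kilobase while the IκB sum stood at 256 and 270 against 245 and 271. For replicate 1 the IκB sum went from 164 to 402 FPKM while the subunit sum went from 431 to 547 FPKM. With 2 libraries per group no exact permutation test of this ratio can reach 0.05, so none is given. Neither the ratio nor the subunit shares were planned in advance. In replicates 2 and 3 the ratio largely restates the lower levels of *Nfkb1*, *Nfkb2*, *Rela* and *Relb* given above.

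The genes whose pattern over the 4 count libraries came closest to that of *Nfkbia*, by Euclidean distance of centred log2 CPM, were *Anapc7* at a distance of 0.017, *Myo1d* at 0.022, *Enox2* at 0.024, *Hmga1b* at 0.028 and *Yaf2* at 0.033. *Anapc7*, which encodes a subunit of the anaphase-promoting complex, stood at 64.1 and 67.3 CPM with DMSO and 56.8 and 64.0 CPM with MAPK13-IN-1, with the lowest level in the same library as *Nfkbia*. In the replicate 1 pair *Anapc7* went from 19.1 to 17.6 FPKM while *Nfkbia* was higher with MAPK13-IN-1.

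Since the feedback of NF-κB on its own genes runs through their promoters, the RefSeq promoter windows (GRCm38.p6, 250 bases before to 50 after each annotated start) were searched on both strands for the κB consensus. Of the 10 genes 8 had a window, and *Nfkb1* and *Relb* had none in the table. A match was found for 6 of the 8, *Nfkb2*, *Rel*, *Nfkbia*, *Nfkbie*, *Tnfaip3* and *Bcl3*, and none was found for *Rela* and *Nfkbib*. Of all 32851 windows 4.51% held a match, and of all 27025 genes 5.14% held one in at least 1 window. The genes were chosen as known members of the feedback, so this share describes the choice as much as the promoters. The genes with a match included 3 that rose (*Rel*, *Nfkbie* and *Tnfaip3*), 2 that fell (*Nfkb2* and *Bcl3*) and *Nfkbia*, which was not called, so a match went with no single direction. A match describes letters in a window and is not a bound site.

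The stretches around the matches are shown for genes of each direction, read 5′ to 3′ on the strand of the gene and ending no later than the base before the annotated start, with each match in capitals. The most upstream window of *Nfkb2* (chr19:46304678-46304736, plus strand) held matches beginning 39 and 11 bases before the start, the first of them extended by an overlapping match on the other strand, and its other 2 windows also held matches. *Rel* (chr11:23771031-23771081, minus strand) held overlapping matches beginning 92 bases before the start, *Nfkbia* (chr12:55492648-55492696, minus strand) a match 29 bases before it and *Nfkbie* (chr17:45555574-45555623, plus strand) a match 106 bases before it. In *Tnfaip3* (chr10:19015411-19015555, minus strand) matches began 125 and 12 bases before the start, and its other window held none. The match of *Bcl3* lay 3 to 12 bases after the start and is not shown.
*Nfkb2*: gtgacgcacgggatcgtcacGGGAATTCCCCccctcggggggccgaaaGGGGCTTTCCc
*Rel*: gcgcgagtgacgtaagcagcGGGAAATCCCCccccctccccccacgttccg
*Nfkbia*: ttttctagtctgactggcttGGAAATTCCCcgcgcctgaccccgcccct
*Nfkbie*: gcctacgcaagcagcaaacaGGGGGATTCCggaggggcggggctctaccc
*Tnfaip3*: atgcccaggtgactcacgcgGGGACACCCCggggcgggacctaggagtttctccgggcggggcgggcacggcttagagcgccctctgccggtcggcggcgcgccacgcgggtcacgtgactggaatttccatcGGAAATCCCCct

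Around these 10 genes, the other genes of the pathway were taken from lists of receptors, signalling proteins, brakes and targets. Of the 76 genes on them, all tested, 33 were lower, 27 were higher and 16 were not called, with a median log2 fold change of −0.07. That is 78.9% called, where 63.8% of all genes were called, 32.3% lower and 31.5% higher, and the counts of each list below stand against the same shares. Scaled by library totals, 30 pathway genes were lower and 30 higher, where 4302 of all genes tested were lower and 6176 higher. Among the 12 receptors that feed NF-κB, 7 were lower and 3 higher, with a median of −0.53. Of the T cell costimulators of the TNF receptor family, *Tnfrsf18* fell from 305 and 306 CPM to 72.0 and 98.9 CPM, *Tnfrsf4* from 277 and 271 CPM to 72.1 and 90.0 CPM and *Tnfrsf9* from 520 and 490 CPM to 166 and 236 CPM, whereas *Tnfrsf1b*, a receptor for TNF, rose from 111 and 105 CPM to 258 and 250 CPM. These falls stand beside the lower T cell markers of the same libraries, and in the replicate 1 pair *Tnfrsf4* went from 321 FPKM with DMSO to 266 FPKM with MAPK13-IN-1, the same direction, while *Tnfrsf18* went from 250 to 282 FPKM and *Tnfrsf9* from 106 to 189 FPKM, the other direction.

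Between the antigen receptor and the IκB kinase, 7 of 19 genes were lower and 7 higher, with a median of 0.04. *Prkcq*, the protein kinase C isoform of T cells, fell from 69.3 and 65.6 CPM to 28.5 and 30.2 CPM. Of the subunits of the kinase itself, *Chuk* (IKKα) fell with a log2 fold change of −0.67 (edgeR, adjusted p = 2.90e-05), *Ikbkb* (IKKβ), added after its values were seen, rose from 89.3 and 87.8 CPM to 115 and 111 CPM, and *Ikbkg* (the regulatory subunit NEMO) was not called, at 68.6 and 68.4 CPM against 73.8 and 70.4 CPM. In the non-canonical branch, which acts through *Nfkb2* and *Relb*, 4 of 6 genes were lower and 1 higher, with a median of −0.20. This count was weakly determined, with 2 lower and 2 higher when libraries were scaled by their totals, 2 lower without DMSO replicate 3 and 2 higher without MAPK13-IN-1 replicate 3. Its kinase gene *Map3k14* fell from 71.5 and 70.8 CPM to 35.5 and 37.2 CPM, so it was lower together with *Nfkb2* and *Relb* in these libraries. In the replicate 1 pair they did not fall together. There *Map3k14* went from 18.6 to 16.5 FPKM and *Relb* was nearly level, but *Nfkb2* went from 153 to 274 FPKM. *Chuk* went from 27.9 to 33.9 FPKM, and 4 of the 6 branch genes were higher.

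The other IκB proteins and brakes on the pathway were split, with 8 of 17 higher (5 without DMSO replicate 2), 5 lower and a median of 0.01. *Nfkbiz*, which encodes the nuclear IκBζ, rose from 97.7 and 89.9 CPM to 151 and 148 CPM. *Cyld*, a deubiquitinase, rose from 177 and 168 CPM to 245 and 259 CPM, and both went in the direction of *Tnfaip3*. Among the lower genes, *Commd1*, *Otulin* and *Tax1bp1* went the other way, with log2 fold changes of −0.78, −0.58 and −0.54. In replicate 1, 15 of these 17 genes were higher with MAPK13-IN-1, beside 54.3% of all genes at or above 1 FPKM, with a median log2 ratio of 0.55. Of 26 textbook NF-κB target genes of lymphocytes 14 were lower and 8 higher, with a median of −0.27, where 32.3% of all genes were lower and 31.5% higher. *Lta* (lymphotoxin α) fell from 466 and 451 CPM to 69.1 and 77.4 CPM, and *Il2ra*, the high-affinity receptor chain for interleukin 2, from 963 CPM in both DMSO libraries to 368 and 430 CPM, and both were lower in the replicate 1 pair, at 202 against 238 FPKM and 237 against 384 FPKM. *Ccl4*, with the lowest log2 fold change of the list at −2.69, fell from 27.8 and 29.8 CPM to 3.75 and 5.19 CPM, but went from 21.9 to 118 FPKM in the replicate 1 pair, the opposite direction. *Ier3* rose from 18.3 and 16.4 CPM to 89.7 and 91.4 CPM, and *Gadd45b* from 75.5 and 75.9 CPM to 245 and 214 CPM. In the replicate 1 pair 19 of the 26 were higher, beside the same 54.3%.

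**Figure D3:**
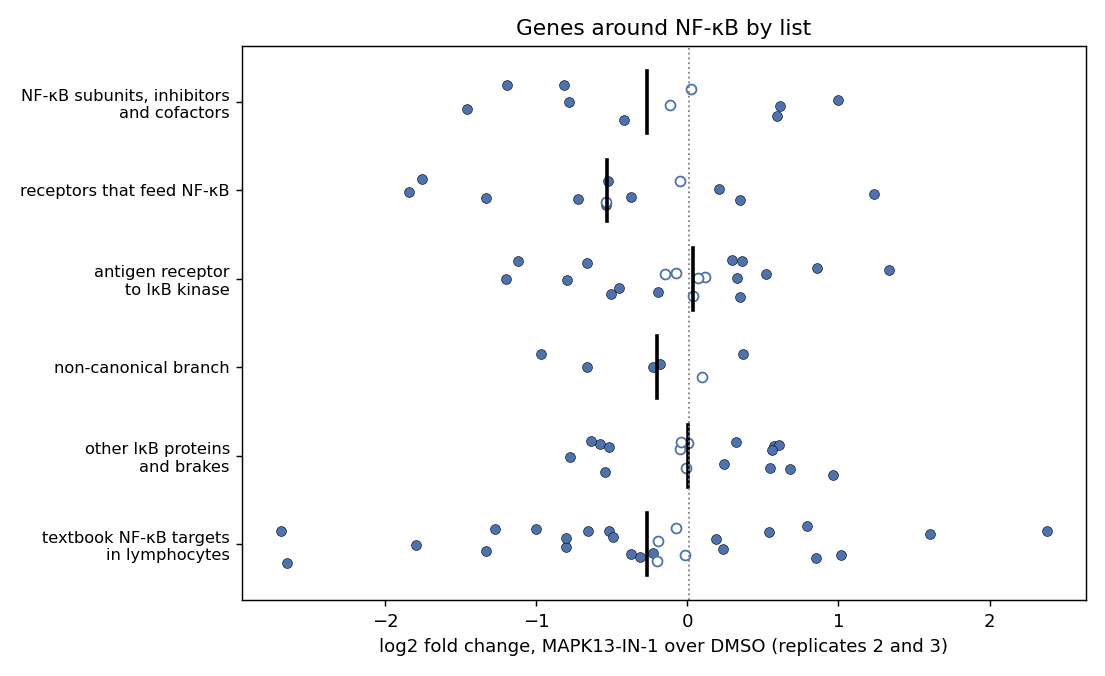
Log2 fold change, MAPK13-IN-1 over DMSO in replicates 2 and 3, of each gene (points, filled where called) by list, with the list's median as a black bar and the median over all genes tested of 0.01 as a dotted line. The receptor list has the lowest median, −0.53, and every list holds genes on both sides of 0.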

How the data were processed

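Whole-number counts per gene were deposited by the authors for replicates 2 and 3 of each group, and values read as FPKM were deposited for the replicate 1 pair, a unit inferred from their size and their dependence on transcript length. The submitters' processing notes name fastp 0.21.0, HISAT2 2.1.0, StringTie 2.1.5 and DESeq2 1.30.1 and the build mm10, with no role or order. Counts were analysed here in R 4.3.3 with edgeR 4.0.16 (filterByExpr at its defaults, TMM scaling, quasi-likelihood test without covariates, Benjamini-Hochberg adjustment over 16269 genes), a script tested on simulated data. Counts of the replicates within a group were compared gene by gene, and chi-square had a median of 1.02 and a mean of 3.08 for DMSO and of 2.16 and 9.60 for MAPK13-IN-1, above counting error alone. Log2 ratios of FPKM used a pseudocount of 1 and understate changes of low genes. Exon lengths and positions came from GENCODE M21, and promoter windows from RefSeq. DESeq2 1.42.0, other scalings and filters, stricter thresholds, a replicate block and omission of each library were the alternatives. Members and lists were chosen with earlier results of these data known. Of each pathway list, genes named were among the 3 with the smallest p in each direction, with those not called where they were at most 5; of each marker list, the gene with the highest mean CPM and those at 0. *Cd4* and *Ikbkb* were named after their values were seen, and overlapping genes for their position. Some genes that meet the rule for naming are not reported here.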

Additional observations from a re-analysis of the deposited data

Results flagged for a closer look

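For 3 subunit or cofactor genes the replicate 1 pair moved against replicates 2 and 3, in which both inhibitor libraries lay below both DMSO libraries. *Nfkb2* had a log2 ratio of 0.84 in the replicate 1 pair beside a log2 fold change of −1.19 in replicates 2 and 3. *Rela* had 0.23 beside −0.82, and *Bcl3* had 0.20 beside −0.42. The replicate 1 pair has 1 library per group and another kit, and the difference between the sets of libraries was not tested.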

How the results depend on the processing

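The 10 members' log2 fold changes kept their direction under every alternative except for *Nfkbia* and *Nfkbib*, which are not called. Asking for a fold change over 1.5 left 4233 genes called (2088 lower, 2145 higher), 5 members, of which 1 was higher, and 23 pathway genes (14 lower, 9 higher). It ended the calls of *Rel* (log2 fold change 0.59), *Nfkbie* (0.61) and *Bcl3* (−0.42), as a stricter null does by construction. Leaving out 1 library at a time moved the log2 fold change of *Nfkbia* between −0.22 and −0.022 and called it without MAPK13-IN-1 replicate 3, and the cause was not tested; the lone library of a group is then assumed to vary like the other group. The replicate numbers are shared between groups, but nothing says that a number marks a shared source. Deviations of the replicate 2 libraries from their group means correlated at r = 0.0139 across 14166 genes. With 2 replicates per group, replicate 3 gives the same value by construction, so this is 1 comparison. With the replicate block, 10645 genes were called (5384 lower, 5261 higher). In all, 929 of 982 alternative values stayed on their side of the threshold, within 1.5 times of the count or within the spread between replicates. Of these, 29 turned sign, all of them fold changes of 11 genes that are not called. The replicate 1 log2 ratios of all 10 members moved by less than the spread between replicates with a pseudocount of 0.1 or a rescaling to a median of 0. Low depth limits no member, but the depth of the replicate 1 pair is unknown, and 2 libraries per group leave the spread poorly known.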
